A study of Mus musculus with 51 samples.

Results

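The imprinted cluster around Igf2r on mouse chromosome 17 was described here in a window of 650 kb (GRCm38) that holds the genes Airn, Igf2r, Slc22a2 and Slc22a3. Every peak of the deposited allele tables that overlapped this window was taken, which gave 53 of 144952 autosomal peaks, together with 650 of the 2462755 windows of 1 kb for which total signal was deposited. Of the 53 peaks, 41 had 20 or more reads on either copy in some wild-type library and were called informative, and the others were not tested. Among the deposited peaks, which were called on the wild-type libraries, the members were taken by position alone. The window itself was chosen with earlier results of these data known.

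Genomic imprinting is the expression of a gene from only 1 of its parental copies. In this cluster a CpG island inside Igf2r is methylated in the oocyte, and on the unmethylated paternal copy it is the start of Airn, a long noncoding RNA transcribed against the direction of Igf2r and across its promoter. Igf2r, which encodes a receptor that clears the growth factor IGF2, is silenced on the paternal copy, and in the placental lineage so are the organic cation transporter genes Slc22a2 and Slc22a3. H3K4me3 marks active or CpG-rich promoters, H3K36me3 marks transcribed gene bodies and H3K27me3 is the repressive mark of Polycomb complexes.

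These marks were profiled by native ChIP-seq at E6.5 in epiblast, which forms the embryo proper, and in extra-embryonic ectoderm (ExE), a precursor of the placenta, with pools of 4 epiblasts or 8 ExE per sample. The wild-type embryos were reciprocal F1 hybrids of C57BL6/Babr (B6) and CAST/Ei (CAST), written with the mother first as B6/CAST and CAST/B6. In matDKO/CAST the mothers were B6/129 females that carried floxed Dnmt3a and Dnmt3b and a Zp3-cre, which removes both de novo DNA methyltransferases in the growing oocyte, and the fathers were CAST. Their embryos were therefore Dnmt3a -/+ and Dnmt3b -/+ by maternal inheritance, and the comparison asks what the marks look like when the maternal copy lacks oocyte DNA methylation. The 129 part of the mothers, the heterozygous embryos and an extra alignment of reads to 129 also set this cross apart. Their effects and that of the lost oocyte methylation cannot be told apart in this design. Each mark, tissue and cross had 2 libraries, 36 in all, and 15 inputs were available. The deletion itself was not checked here.

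The libraries held 270678 to 6821523 allele-assigned reads in peaks, and the smallest were from the matDKO/CAST epiblast. Over all autosomal peaks the paternal share was 47.4 to 51.2% in wild-type libraries and 44.2 to 48.9% in matDKO/CAST libraries. As a check of the dissection, summed H3K4me3 at the start sites of 6 epiblast genes, including Pou5f1 and Nanog, was 121 to 186 RPKM in epiblast libraries and 45.7 to 81.8 RPKM in ExE libraries, which did not overlap. The same sum for 6 ExE genes was 72.4 to 113 RPKM in ExE and 60.4 to 87.4 RPKM in epiblast, which overlapped. By the means of the 3 crosses, Cdx2 (22.2 to 31.9 against 11.9 to 12.7 RPKM) and Tfap2c (20.4 to 22.4 against 8.61 to 14.6 RPKM) were higher in ExE than in epiblast, Gata3 overlapped (6.80 to 9.54 against 4.64 to 7.33 RPKM), and so did Eomes, the most abundant (33.5 to 39.5 against 37.8 to 44.1 RPKM). Elf5 and Esrrb were below 1 RPKM in both tissues. Visceral endoderm genes summed to 39.7 to 67.1 RPKM in ExE and 35.3 to 55.7 RPKM in epiblast, and genes of the maternal decidua to 34.6 to 48.7 and 38.5 to 61.4 RPKM. A part of these cells in the differences between tissues given below was not tested, and the marks at a promoter do not count cells.

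The promoters of the 4 genes differ in CpG content, which is where DNA methylation can act, and they are shown for that reason. The 250 bases before each RefSeq start were read from GRCm38.p6, 5′ to 3′ in the direction of transcription, with each CpG in capitals. The last sequence is the stretch of 300 bases with the most CpG in the epiblast H3K4me3 peak at the Airn start, on the plus strand.
Airn, chr17:12741061-12741310, plus strand: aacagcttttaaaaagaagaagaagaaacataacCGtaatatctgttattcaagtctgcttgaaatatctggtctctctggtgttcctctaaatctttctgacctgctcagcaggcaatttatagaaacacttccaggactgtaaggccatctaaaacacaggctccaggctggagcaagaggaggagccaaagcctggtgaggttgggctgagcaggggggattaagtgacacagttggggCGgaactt
Igf2r, chr17:12769707-12769956, minus strand: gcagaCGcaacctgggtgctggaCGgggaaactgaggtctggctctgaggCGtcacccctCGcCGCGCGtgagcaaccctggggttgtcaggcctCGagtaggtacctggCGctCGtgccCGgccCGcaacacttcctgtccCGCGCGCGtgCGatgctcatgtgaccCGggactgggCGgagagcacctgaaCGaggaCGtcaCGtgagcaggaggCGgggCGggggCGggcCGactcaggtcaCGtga
Slc22a2, chr17:12583939-12584188, plus strand: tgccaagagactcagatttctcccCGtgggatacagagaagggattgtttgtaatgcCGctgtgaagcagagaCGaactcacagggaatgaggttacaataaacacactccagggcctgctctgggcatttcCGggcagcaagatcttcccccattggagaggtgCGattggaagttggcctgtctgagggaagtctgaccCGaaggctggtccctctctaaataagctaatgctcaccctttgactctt
Slc22a3, chr17:12507705-12507954, minus strand: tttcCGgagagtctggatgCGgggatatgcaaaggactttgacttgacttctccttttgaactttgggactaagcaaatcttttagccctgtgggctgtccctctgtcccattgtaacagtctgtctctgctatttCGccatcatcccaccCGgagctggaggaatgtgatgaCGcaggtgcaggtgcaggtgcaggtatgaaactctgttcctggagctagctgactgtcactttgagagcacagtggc
Airn H3K4me3 peak, chr17:12741732-12742031, plus strand: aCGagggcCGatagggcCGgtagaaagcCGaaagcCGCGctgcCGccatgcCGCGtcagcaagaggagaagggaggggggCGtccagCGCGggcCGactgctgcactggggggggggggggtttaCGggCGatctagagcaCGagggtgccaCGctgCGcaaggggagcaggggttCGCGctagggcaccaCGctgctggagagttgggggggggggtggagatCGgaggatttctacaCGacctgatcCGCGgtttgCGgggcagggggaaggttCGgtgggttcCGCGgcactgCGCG

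The Igf2r sequence held 27 CpG, more than 91.2% of the 31396 promoters of the table, whose median was 6. Airn had 2 CpG before its annotated start, Slc22a2 had 6 and Slc22a3 had 5. The CpG of the Airn peak lay behind the start instead, where 31 CpG fell within 300 bases at an observed over expected ratio of 0.949. That sequence also held 3 copies of TGCCGC or its reverse complement GCGGCA, the core of the motif bound by ZFP57, which keeps methylated imprints after fertilisation. The whole peak of 4000 bp held 8 copies, a number reached by 0.136% of the 2214 epiblast H3K4me3 peaks of that length, and 59.1% of those peaks held at least 1. In the same tissue the Igf2r peak held 2 and the Slc22a3 peak 1. Among all promoters of 250 bases, 8.70% held the hexamer, and of the 4 shown here it was in that of Slc22a2, with 1 copy.

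**Figure D1:**
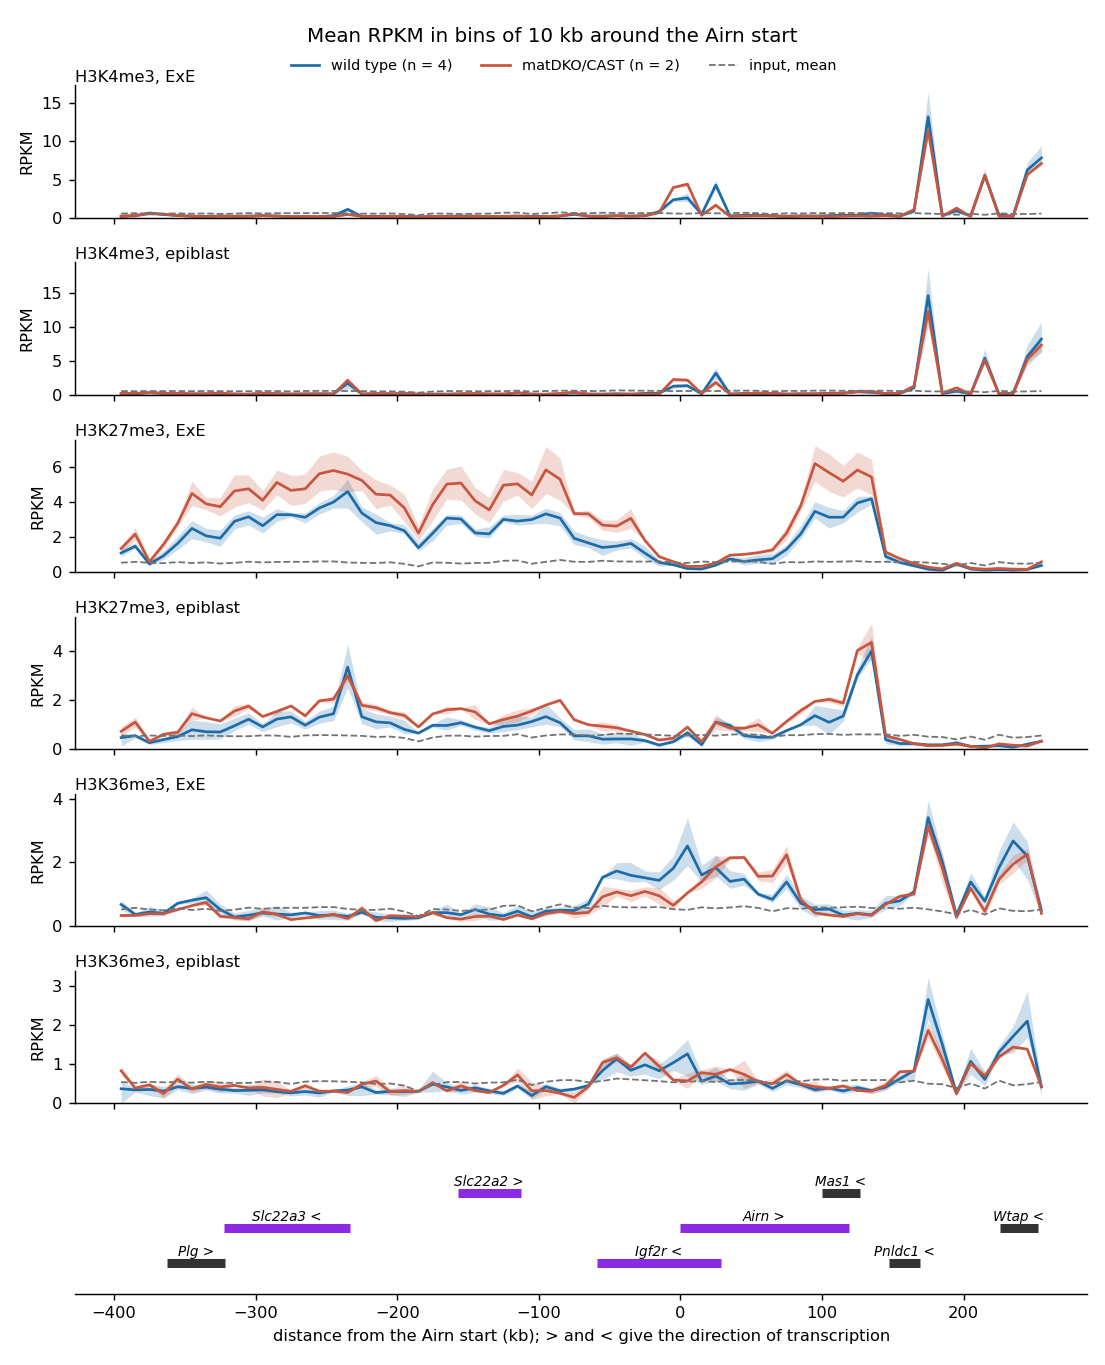
Mean RPKM of each mark in bins of 10 kb by distance from the Airn start (kb), for wild-type libraries (blue, n = 4) and matDKO/CAST libraries (red, n = 2), with the range of libraries shaded, the mean input dashed and the genes drawn below. H3K27me3 filled the stretch over Slc22a2, Slc22a3 and the 3′ end of Igf2r and a second one over distal Airn, H3K4me3 stood at the Airn and Igf2r starts, and H3K36me3 covered Igf2r and Airn.

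H3K27me3 peaks covered 74.4% of the window in ExE and 53.2% in epiblast, H3K36me3 peaks 44.1 and 24.4%, and H3K4me3 peaks 13.4 and 7.77%. The profile along the cluster shows that the broad H3K27me3 stretches and the Igf2r and Airn promoters took up different ground.

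At the Airn start, H3K4me3 lay almost wholly on the paternal copy in both tissues of wild-type embryos and on both copies in matDKO/CAST. In ExE (peak chr17:12737000-12745500, inside the Igf2r gene, which runs on the other strand) the B6/CAST libraries held 305 and 184 paternal against 23 and 16 maternal reads. The CAST/B6 libraries held 171 and 187 paternal against 16 and 9 maternal reads. The matDKO/CAST libraries held 164 and 131 paternal against 165 and 117 maternal reads. The paternal share was thus 91.4 to 95.4% in the 4 wild-type libraries and 49.8 and 52.8% in matDKO/CAST, with no overlap. The log2 ratio of paternal to maternal reads was 3.68 ± 0.19 (SE) in B6/CAST and 3.79 ± 0.24 in CAST/B6 (edgeR, adjusted p = 2.70e-14 and 2.27e-12), and 0.18 ± 0.17 in matDKO/CAST (adjusted p = 0.804). The difference of the bias between matDKO/CAST and B6/CAST was -3.49 ± 0.26 (adjusted p = 1.81e-07). Seen by allele, the maternal copy gained 3.62 ± 0.21 on the log2 scale in matDKO/CAST (adjusted p = 4.07e-10), and the paternal copy differed by 0.12 ± 0.14 (adjusted p = 0.716).

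The epiblast gave the same picture with fewer reads at the Airn start (peak chr17:12740000-12744000). Paternal reads numbered 140 and 86 in B6/CAST and 85 and 25 in CAST/B6, against 3, 0, 4 and 1 maternal reads. In matDKO/CAST the libraries held 115 and 27 paternal against 88 and 21 maternal reads. The paternal share was 95.5 to 100% in wild type and 56.7 and 56.2% in matDKO/CAST. Log2 ratios of 6.17 ± 0.54 for B6/CAST and 4.38 ± 0.49 for CAST/B6 both passed (adjusted p = 0.000186 and 6.49e-06). The difference of the bias in matDKO/CAST was -5.66 ± 0.59 (adjusted p = 1.34e-06). Because B6/CAST held only 3 maternal reads, these fitted ratios depend on the prior count. Per allele-assigned read, the maternal copy carried 73.4 times as many reads in matDKO/CAST as in B6/CAST, with an exact 95% interval of 24.4 to 361 that covers counting error only. Without the deeper CAST/B6 library (replicate 2) the bias in that cross was 4.56 and did not pass (adjusted p = 0.409).

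At the Igf2r start, H3K4me3 was the mirror image of Airn in ExE, on the maternal copy in wild type. The ExE peak (chr17:12765000-12771000) held 137 and 83 maternal against 24 and 17 paternal reads in B6/CAST. CAST/B6 held 89 and 73 maternal against 13 and 10 paternal reads. In matDKO/CAST the counts were 16 and 13 maternal against 18 and 8 paternal reads. Paternal reads made up 12.05 to 17% of the total in wild type and 52.9 and 38.1% in matDKO/CAST, again with no overlap. The log2 ratio of paternal to maternal reads was -2.36 ± 0.22 for the B6/CAST libraries and -2.85 ± 0.28 for CAST/B6 (adjusted p = 1.38e-08 and 2.52e-08), and -0.09 ± 0.52 in matDKO/CAST (adjusted p = 0.989). It was the maternal copy that fell, by 2.13 ± 0.29 on the log2 scale (adjusted p = 2.98e-05), while the paternal copy differed by 0.16 ± 0.37 (adjusted p = 0.869). The bias of matDKO/CAST differed from that of B6/CAST by 2.296 ± 0.48 (adjusted p = 0.0197). It kept its sign but missed the threshold in DESeq2 (adjusted p = 0.0952) and when B6/CAST replicate 1 (2.16, adjusted p = 1.000), B6/CAST replicate 2 (2.37, 0.477) or matDKO/CAST replicate 2 (1.70, 0.666) was left out.

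In the epiblast the Igf2r start (chr17:12767000-12771000) was not called biased in any cross. Maternal reads numbered 55, 31, 44 and 5 in the wild-type libraries, in the order B6/CAST and CAST/B6, against 21, 21, 26 and 6 paternal reads. The matDKO/CAST libraries held 12 and 8 maternal against 14 and 2 paternal reads. The maternal copy had more reads in 3 of the 4 wild-type libraries, and the shares overlapped those of matDKO/CAST. The log2 ratios were -0.94 ± 0.40 in B6/CAST and -0.55 ± 0.45 in CAST/B6 (adjusted p = 0.413 and 0.845). With a term for the library, the B6/CAST value was -0.96 and did pass (adjusted p = 0.0105).

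Slc22a3 carried H3K4me3 on the maternal copy in ExE and on both copies in epiblast. Its ExE peak (chr17:12506000-12508500) held 52 and 47 maternal against 8 and 10 paternal reads in B6/CAST. CAST/B6 held 19 and 26 against 3 and 8 reads, and matDKO/CAST 8 and 7 against 7 and 3 reads. Paternal reads made up 13.3 to 23.5% in wild type and 46.7 and 30.0% in matDKO/CAST, so the groups did not overlap but the counts in matDKO/CAST were small. B6/CAST had a log2 ratio of -2.40 ± 0.34 and CAST/B6 of -2.05 ± 0.48 (adjusted p = 1.31e-05 and 0.00758). The CAST/B6 value missed the threshold in DESeq2 (adjusted p = 0.254) and without CAST/B6 replicate 1 (-1.68, 0.130) or replicate 2 (-2.65, 0.0717). The maternal copy fell by 1.96 ± 0.43 in matDKO/CAST (adjusted p = 0.00507) and the paternal copy differed by -0.04 ± 0.60 (adjusted p = 0.983), but the difference of the bias, 1.92 ± 0.77, did not pass (adjusted p = 0.898).

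The epiblast peak at the Slc22a3 start (chr17:12506000-12510000) held 63, 59, 38 and 4 maternal against 51, 54, 26 and 13 paternal reads in wild type, and 35 and 12 against 47 and 6 in matDKO/CAST. No cross differed between the copies, with log2 ratios of -0.16, 0.07 and 0.22 (adjusted p = 0.956, 0.998 and 0.845). Slc22a2, by contrast, had no H3K4me3 peak at its start in either tissue. Its start held 0.153 to 0.322 RPKM of H3K4me3 in ExE and 0.112 to 0.299 RPKM in epiblast of wild-type embryos, at a place where the ExE inputs held 0.311 to 0.615 RPKM.

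Of the informative H3K4me3 peaks, 3 of 13 in ExE had the same parent higher in both wild-type crosses, against 0.319% of 23211 peaks tested over the autosomes. The paternal copy was higher in 1 of them (0.19% of all peaks) and the maternal copy in 2 (0.129%). In epiblast 1 of 10 was called, Airn, with the paternal copy higher, against 0.108% of 20328 peaks and 0.0787% with the paternal copy higher. The median log2 ratio in B6/CAST over the members was -0.17 in ExE and 0.12 in epiblast.

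**Figure D2:**
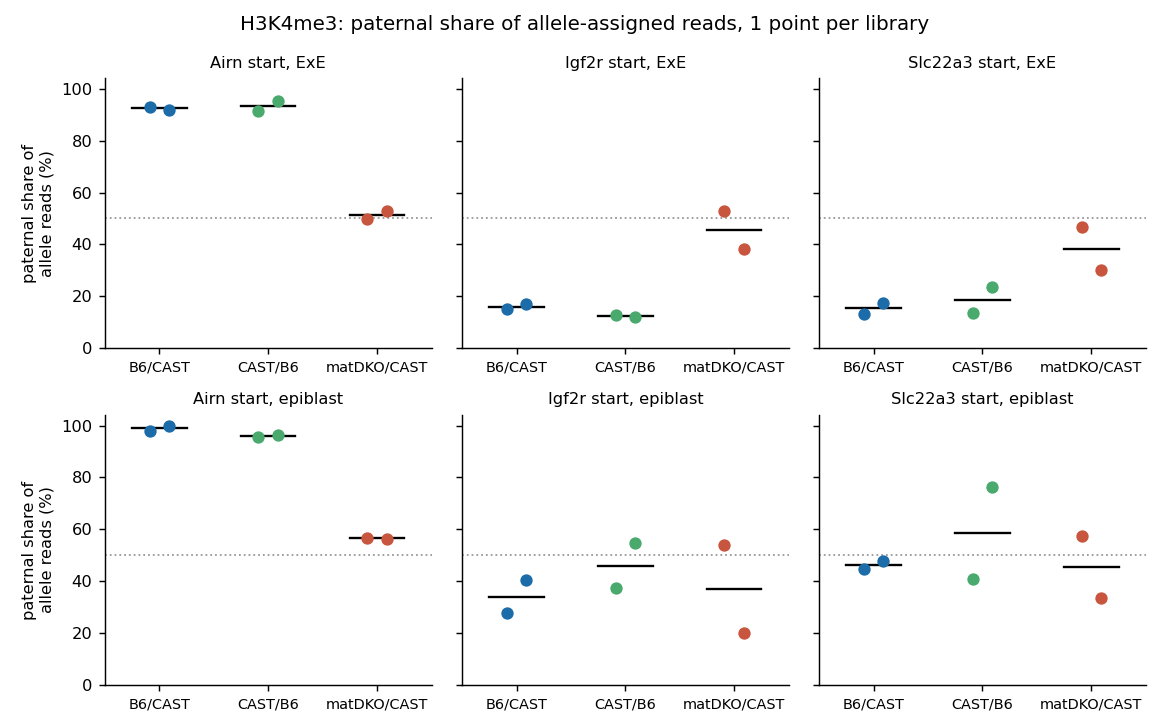
Paternal share of allele-assigned H3K4me3 reads (%) at the Airn, Igf2r and Slc22a3 starts, 1 point per library and a bar at the mean of 2, in ExE (top) and epiblast (bottom), with the dotted line at equal shares. In wild-type libraries Airn sits at 91.4% or more in both tissues and Igf2r and Slc22a3 sit at 23.5% or less in ExE, and in the ExE panels matDKO/CAST lies nearer to equal shares.

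**Figure D3:**
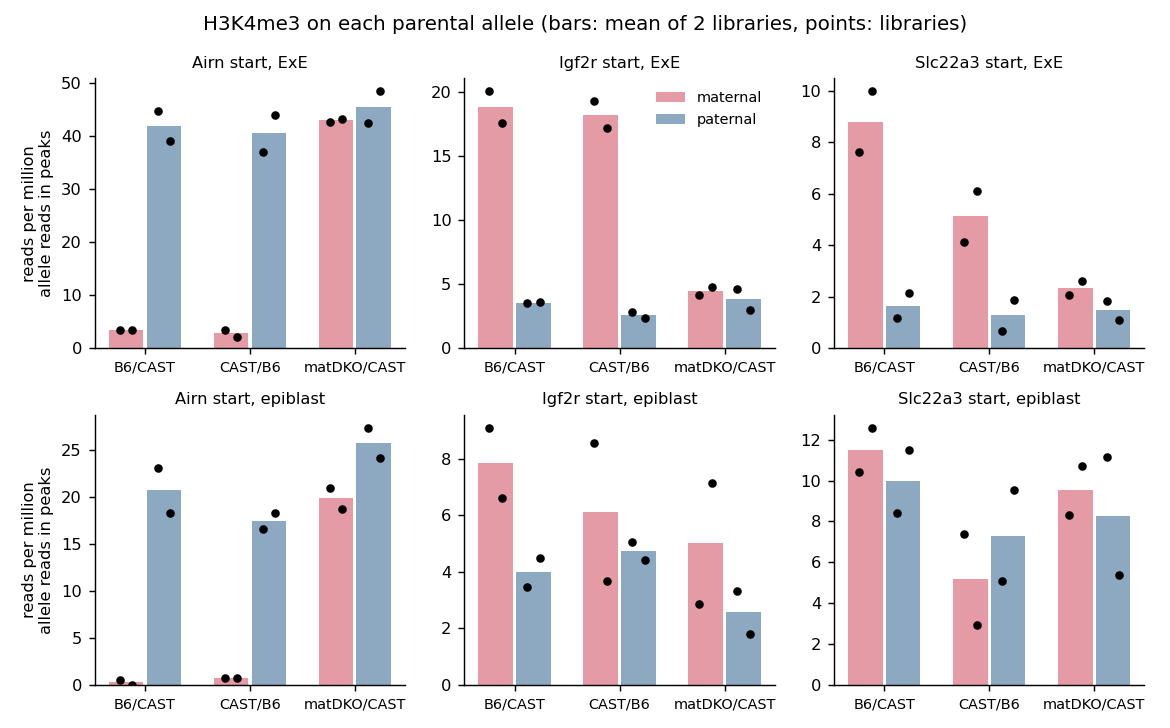
H3K4me3 reads at the Airn, Igf2r and Slc22a3 starts, scaled to the allele-assigned reads of each library (RPM), on the maternal (red) and paternal (blue) copy, with bars for the mean of 2 libraries and points for libraries. In matDKO/CAST ExE the maternal bar rises to the paternal level at Airn and falls towards it at Igf2r and Slc22a3.

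H3K27me3 lay on the paternal copy over 2 long stretches in ExE, and the maternal copy carried as much in matDKO/CAST. The longer one (chr17:12372500-12721500) spans Plg, which encodes plasminogen, all of Slc22a3 and Slc22a2, and the 3′ end of Igf2r. It held 5870 and 4312 paternal against 889 and 672 maternal reads in B6/CAST, and 8664 and 4715 against 984 and 643 in CAST/B6. In matDKO/CAST it held 3371 and 2347 paternal against 3572 and 2502 maternal reads. Paternal reads made up 86.5 to 89.8% in wild type and 48.6 and 48.4% in matDKO/CAST. The log2 ratios were 2.78 ± 0.07 and 3.00 ± 0.07 in the wild-type crosses (adjusted p = 2.89e-42 and 9.76e-65), and the difference in matDKO/CAST was -2.60 ± 0.15 (adjusted p = 1.57e-30). The maternal copy rose by 2.55 ± 0.11 on the log2 scale (adjusted p = 8.59e-42) and the paternal copy differed by -0.05 ± 0.10 (adjusted p = 0.853).

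The second stretch (chr17:12795500-12895000) begins inside Airn and runs past its end over Mas1 and Mrgprh, which encode G-protein-coupled receptors, into Pnldc1. Paternal reads numbered 1332, 979, 1872 and 1033 in the wild-type libraries against 283, 225, 331 and 227 maternal reads. In matDKO/CAST they were 832 and 585 paternal against 876 and 570 maternal. The share fell from 81.3 to 85.0% in wild type to 48.7 and 50.6%, with a difference of the bias of -2.02 ± 0.16 (adjusted p = 4.14e-21). Here too the maternal copy rose, by 2.09 ± 0.12 (adjusted p = 1.87e-32), and the paternal copy differed by 0.08 ± 0.10 (adjusted p = 0.750). With a term for the library, a small excess of paternal reads remained in matDKO/CAST, of 0.19 on the log2 scale in the Slc22a stretch (adjusted p = 0.000761) and 0.26 in this one (adjusted p = 0.00301), on the scale on which all autosomal peaks of the 2 copies are set equal.

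A further pair of ExE peaks of H3K27me3 had the paternal copy higher in both crosses. An intergenic one (chr17:12321000-12364500) had log2 ratios of 1.72 and 2.06 and a bias that fell by 1.49 ± 0.19 in matDKO/CAST (adjusted p = 1.47e-09). One at the start of Acat3 (chr17:12935000-12942500) had ratios of 1.19 and 1.77, and its bias in matDKO/CAST differed by -0.22 ± 0.61 (adjusted p = 0.984). Both of its calls were fragile. The B6/CAST value (adjusted p = 0.0497) lost its call with library totals (1.13, 0.0628) and without replicate 1 (0.76, 0.670) or replicate 2 (1.51, 0.104), and the CAST/B6 value without replicate 1 (0.97, 0.244). At the Igf2r start (chr17:12768500-12781500) the ratios were 0.32 ± 0.28 and 0.52 ± 0.26 (adjusted p = 0.544 and 0.143), so this peak of H3K27me3 was called on neither copy. Its maternal copy rose by 0.88 ± 0.29 in matDKO/CAST (adjusted p = 0.0317). In all, 4 of 5 ExE peaks were called paternal, against 1.35% of 18592 peaks called for either parent and 1.12% called paternal, and the median log2 ratio in B6/CAST was 1.72.

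**Figure D4:**
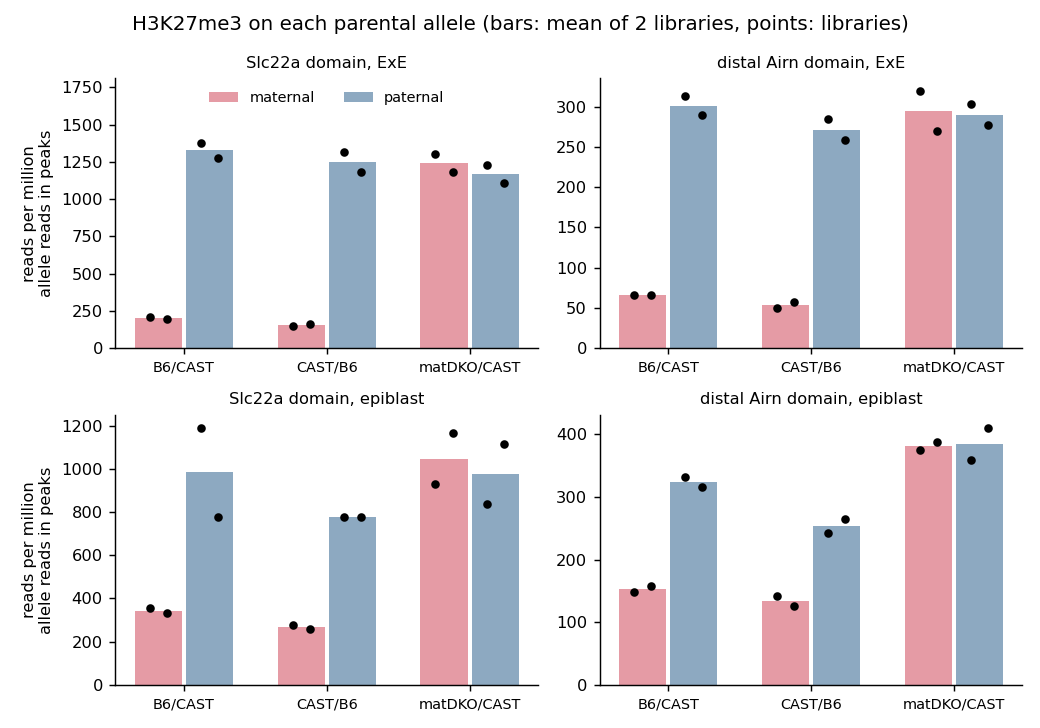
H3K27me3 reads, scaled to the allele-assigned reads of each library (RPM), on the maternal (red) and paternal (blue) copy over the Slc22a stretch and the stretch over distal Airn, with bars for the mean of 2 libraries and points for libraries. The maternal bars are the lower in each wild-type panel and stand beside the paternal ones in matDKO/CAST.

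The epiblast held the same 2 stretches with a weaker bias. Over Plg, Slc22a3 and Slc22a2 (chr17:12390000-12666000) the wild-type libraries held 1443, 709, 1546 and 937 paternal against 429, 302, 555 and 312 maternal reads. The matDKO/CAST libraries held 939 and 302 paternal against 1043 and 315 maternal reads. The paternal share was 70.1 to 77.1% in wild type and 47.4 and 48.9% in matDKO/CAST. The log2 ratios were 1.62 ± 0.23 and 1.52 ± 0.10 (adjusted p = 0.000177 and 3.06e-52), and the difference in matDKO/CAST was -1.43 ± 0.29 (adjusted p = 0.0242). That difference missed the threshold without B6/CAST replicate 1 (-1.11, adjusted p = 0.195), matDKO/CAST replicate 1 (-1.325, 0.930) or matDKO/CAST replicate 2 (-1.52, 0.397). The maternal copy rose by 1.44 ± 0.21 (adjusted p = 2.66e-05).

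Over distal Airn and Mas1 in epiblast (chr17:12822000-12881000) there were 402, 288, 483 and 321 paternal against 180, 144, 281 and 152 maternal reads in wild type. In matDKO/CAST there were 402 and 111 against 420 and 105. The share went from 63.2 to 69.1% to 48.9 and 51.4%, and the maternal copy rose by 1.16 ± 0.20 (adjusted p = 0.000195). The bias differed by -0.89 ± 0.27 (adjusted p = 0.590), or by -0.93 where the library was a term (adjusted p = 0.000186). The CAST/B6 bias of this peak, 0.90 ± 0.12 (adjusted p = 1.13e-12), missed the threshold without either CAST/B6 library (adjusted p = 0.144 and 0.406).

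Epiblast libraries also had a small H3K27me3 peak on the Airn start itself (chr17:12742000-12744000), a promoter that carried H3K4me3 on the same copy. It held 16, 20, 29 and 16 paternal against 2, 2, 5 and 2 maternal reads in wild type, and 20 and 4 against 15 and 3 in matDKO/CAST. The paternal share was 85.3 to 90.9% in wild type, above both matDKO/CAST libraries at 57.1%, but the difference of the bias, -2.53 ± 0.83, did not pass (adjusted p = 0.768). The log2 ratios were 3.21 ± 0.63 and 2.64 ± 0.53 (adjusted p = 0.00523 and 2.81e-05). The B6/CAST value was 3.30 in DESeq2 (adjusted p = 0.138), and the CAST/B6 value missed the threshold without either of its libraries (adjusted p = 0.260 and 0.112). These reads cannot say whether both marks sat on the same chromosomes or in different cells of a pool. The Igf2r start had log2 ratios of 0.62 and 0.53 in epiblast (adjusted p = 0.661 and 0.211). In this tissue 3 of 4 H3K27me3 peaks were called paternal, against 0.325% of 8924 peaks called for either parent and 0.28% called paternal.

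In each tissue the longest H3K36me3 peak over Igf2r had more maternal than paternal reads in every wild-type library, and no H3K36me3 peak was called in both crosses. The ExE peak over Igf2r and most of Airn (chr17:12678500-12827000) held 361, 234, 341 and 271 paternal against 433, 330, 370 and 325 maternal reads in wild type. In matDKO/CAST it held 116 and 202 against 125 and 201. The paternal share was 41.5 to 48.0% in wild type and 48.1 and 50.1% in matDKO/CAST. The log2 ratios were -0.29 ± 0.09 in B6/CAST (adjusted p = 0.0303, and 0.0810 with a term for the library) and -0.25 ± 0.09 in CAST/B6 (adjusted p = 0.126). The B6/CAST call was also lost in DESeq2 (adjusted p = 1.000) and without replicate 1 (-0.43, 0.0687) or replicate 2 (-0.18, 0.555). This peak joins the 2 genes, which are transcribed from opposite copies where they overlap, and a read of it cannot be given to a strand.

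In epiblast the H3K36me3 peak ended soon after the Airn start (chr17:12682000-12753000), and so lay mainly over the 3′ part of Igf2r. It held 39, 103, 91 and 93 paternal against 69, 138, 166 and 146 maternal reads in wild type, and 27 and 70 against 30 and 68 in matDKO/CAST. The paternal share was 35.4 to 42.7% in wild type and 47.4 and 50.7% in matDKO/CAST, without overlap. In CAST/B6 the log2 ratio was -0.83 ± 0.14 (adjusted p = 7.30e-07, and 0.0878 with a term for the library) and in B6/CAST it was -0.50 ± 0.18 (adjusted p = 0.253). The CAST/B6 call was also lost in DESeq2 (adjusted p = 0.0647) and without replicate 1 (-0.72, 0.155). H3K36me3 peaks called in both crosses were 0 of 4 in ExE and 0 of 5 in epiblast by edgeR and by DESeq2, against 0.251% of 7980 and 0.0632% of 11076 peaks. At an unadjusted p under 0.05 in both crosses the count was 1 in each tissue, the Igf2r peak just described.

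None of the 41 informative peaks was called biased in matDKO/CAST by DESeq2 or by edgeR without a term for the library, and 3 had an unadjusted p under 0.05 in the latter. With that term, the Slc22a and distal Airn stretches of ExE H3K27me3 were called, with the values given above. Over all peaks tested the share called was 2.76% in ExE and 7.11% in epiblast for H3K4me3, 2.08 and 1.95% for H3K27me3, and 0.677 and 0.451% for H3K36me3. The difference of the bias was called for 2 of 13 H3K4me3 peaks in ExE (0.87% of all peaks) and 1 of 10 in epiblast (0.679%). For H3K27me3 it was called for 3 of 5 peaks in ExE (0.742%) and 1 of 4 in epiblast (0.179%), and for H3K36me3 for 0 of 9 (0.351 and 0.163%).

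The maternal copy changed between B6/CAST and matDKO/CAST in 12 of the 41 peaks and the paternal copy in 0, by the same edgeR fit. Over all peaks of each table the median change of either copy was between -0.01 and 0.03 on the log2 scale. The scaling of every allele column centres these medians, so they could not show a general shift of a copy. For H3K4me3 the maternal copy changed in 4 ExE peaks (7.52% of all peaks) and 1 epiblast peak (6.89%), for H3K27me3 in 4 (11%) and 3 (3.19%), and for H3K36me3 in 0 (6.02 and 3.36%). The paternal copy changed in 7.68 and 7.19% of all H3K4me3 peaks in ExE and epiblast, in 7.46 and 2.61% of all H3K27me3 peaks and in 6.55 and 3.18% of all H3K36me3 peaks. The 4 ExE peaks whose maternal H3K4me3 changed were those at Airn (up), Igf2r and Slc22a3 (down), and one at Mas1 and Mrgprh (chr17:12869000-12876000) that fell by 1.80 ± 0.54 (adjusted p = 0.0473).

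The paternal share differed between the tissues of wild-type embryos for 5 of 8 pairs of overlapping peaks over the 4 genes (exact permutation test over 4 ExE and 4 epiblast libraries, two-sided, p = 0.0286 and adjusted p = 0.0457 for each of the 5, which is the smallest p that 4 against 4 allow). At the Slc22a3 start the share of H3K4me3 was 17.01% ± 4.75 (SD, n = 4) in ExE and 52.4% ± 16.3 in epiblast. At the Igf2r start it was 14.2% ± 2.24 in ExE and 39.9% ± 11.1 in epiblast. At the Airn start it was 93.0% ± 1.75 in ExE and 97.4% ± 2.01 in epiblast. For H3K27me3 the share was 87.8% ± 1.48 in ExE and 74.0% ± 2.93 in epiblast over the Slc22a stretch, and 82.7% ± 1.60 and 66.7% ± 2.52 over distal Airn. The peaks of each of these 5 pairs differed in width between the tissues. In the same exact test the H3K27me3 peak at the Igf2r start differed by -2.09 points (p = 0.743), and the H3K36me3 peaks by 6.80 points over the Igf2r body (p = 0.0571) and 0.422 points at its start (p = 1.000). Cells of another tissue in a pool and a weaker bias in each cell cannot be told apart in these shares.

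Total signal was also counted without regard to allele. The peaks of both tissues were joined and merged for this. A peak called in a single tissue was thus selected for signal there, and its difference towards that tissue is no separate support. For H3K4me3 this holds for chr17:12359500-12365500, chr17:12720500-12725500 and chr17:12998000-13000500, called in ExE only. For H3K4me3, 10 of 19 peaks differed between wild-type ExE and epiblast, 9 of them higher and 1 lower in ExE (limma, against 47.7% of 45602 peaks, with 28.8% higher and 18.9% lower). The share called was close to that of all peaks, and the count was 4 among peaks with a mean of at least 1 RPKM and 6 without any of 5 single libraries. With the replicate number as a block more of the 19 peaks differed, as given in the section on processing. The median difference was 0.44 on the log2 scale of RPKM plus 0.5 over the members and 0.08 over all peaks. The Airn peak held 3.99 to 5.13 RPKM in the 4 ExE libraries and 1.94 to 3.34 RPKM in the 4 epiblast libraries, which did not overlap (0.79 ± 0.16, adjusted p = 0.000138). Within 1000 bp of the Airn start the difference was 0.77 ± 0.19 (limma, adjusted p = 0.0395). It was 0.59 to 0.95 when each library was left out. With the replicate number as a block it was 0.75 and missed the threshold (adjusted p = 0.0650). The Slc22a3 peak was the one that was lower in ExE, with 1.67 to 3.19 RPKM against 2.18 to 5.49 RPKM (-0.57 ± 0.16, adjusted p = 0.00342). The libraries overlapped, and within 1000 bp of the start the difference did not pass (-0.57 ± 0.19, limma, adjusted p = 0.107). The Igf2r peak held 5.93 to 8.08 RPKM in ExE and 3.74 to 6.54 RPKM in epiblast (0.41 ± 0.17, adjusted p = 0.0464). Leaving out each library gave differences of 0.24 to 0.59. Within 1000 bp of the start the difference was 0.31 ± 0.23 and did not pass (limma, adjusted p = 0.603). With a pseudocount of 0.1 the Igf2r peak did not pass either (adjusted p = 0.0627). Its call was lost without B6/CAST ExE replicate 1, CAST/B6 ExE replicate 2, B6/CAST epiblast replicate 2 or CAST/B6 epiblast replicate 3 (adjusted p = 0.182, 0.169, 0.321 and 0.239).

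For H3K27me3 all 6 peaks differed between the tissues, against 53.9% of 23395 peaks. In ExE 4 of them were higher and 2 lower (45.2 and 8.68% of all peaks). The median difference was 0.50 against 0.21 over all peaks. The peak at the Airn start was called in epiblast only. Those at chr17:12321000-12364500 and at the Acat3 start were called in ExE only. The Slc22a stretch held 2.25 to 2.79 RPKM in ExE and 0.82 to 1.18 RPKM in epiblast (1.08 ± 0.13, adjusted p = 2.52e-05). The peaks at the Airn and Igf2r starts went the other way. The Airn start held 0.27 to 0.48 RPKM in ExE and 1.59 to 2.91 RPKM in epiblast (-1.64 ± 0.19, adjusted p = 2.52e-05), and the Igf2r start 0.66 to 0.85 against 1.196 to 1.59 RPKM (-0.60 ± 0.12, adjusted p = 0.00108). Along the Slc22a2 body H3K27me3 was higher in ExE by 1.15 ± 0.12 on the same log2 scale (adjusted p = 0.00139). Along the Slc22a3 body it was higher by 1.06 ± 0.13 (adjusted p = 0.00222), where 20.6% of 20811 gene bodies were called. Within 1000 bp of the Slc22a2 start the difference was 1.15 ± 0.11 (limma, adjusted p = 0.000508). At the Slc22a3 start it was -0.18 ± 0.20 and was not called (adjusted p = 0.594).

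H3K36me3 was higher in ExE in all 5 peaks, against 51% of 24202 peaks called and 22.9% called higher in ExE. Those at chr17:12386000-12420000 and chr17:12642000-12644500 were peaks in ExE only. At the latter, leaving out each library gave differences of 0.34 to 0.51. Fewer peaks were called when a mean of at least 1 RPKM was required. The median difference was 0.43 over the members and -0.14 over all peaks. The Igf2r and Airn peak held 1.38 to 1.76 RPKM in ExE and 0.62 to 0.83 RPKM in epiblast (0.68 ± 0.07, adjusted p = 0.000247). Past the Igf2r start only Airn is annotated of the 4 genes. There H3K36me3 averaged 0.894 to 1.04 RPKM in ExE and 0.424 to 0.514 RPKM in epiblast. The inputs held 0.551 to 0.617 RPKM, so that only the ExE means stood above input. Each library is scaled to its own depth, so a mean below input does not show that the mark was absent. An epiblast peak (chr17:12786500-12791000) was called in this part and had too few reads to be tested.

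Between matDKO/CAST and B6/CAST the total H3K4me3 of ExE fell at 2 of 19 peaks, at Slc22a3 and at Igf2r, against 0.171% of 45602 peaks called and 0.156% called lower. Slc22a3 held 2.94 and 3.19 RPKM in B6/CAST and 0.66 and 1.07 RPKM in matDKO/CAST, a fall of 1.40 ± 0.22 (adjusted p = 0.000308). The CAST/B6 libraries held 1.67 and 2.08 RPKM, between the 2 groups. Igf2r held 7.67 and 6.005 RPKM in B6/CAST, 5.93 and 8.08 in CAST/B6 and 2.24 and 2.99 in matDKO/CAST, a fall of 1.24 ± 0.25 (adjusted p = 0.00877). The Igf2r call was lost without B6/CAST ExE replicate 1 (adjusted p = 0.470) or matDKO/CAST ExE replicate 2 (0.134). A fit on 1000 bp either side of the start of 20808 genes gave falls of 1.55 ± 0.27 and 1.21 ± 0.33 that did not pass (adjusted p = 0.449 and 1.000, with 0.00481% of starts called).

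At the Airn start total H3K4me3 was higher in every matDKO/CAST library without passing the test against B6/CAST. The peak held 7.91 and 8.57 RPKM in matDKO/CAST ExE against 3.99 to 5.13 RPKM in wild type (0.80 ± 0.23 over B6/CAST, adjusted p = 0.241). In epiblast it held 5.02 and 3.94 against 1.94 to 3.34 RPKM (0.69 ± 0.22, adjusted p = 0.265). Total H3K27me3 over the Slc22a stretch was 4.84 and 3.48 RPKM in matDKO/CAST ExE against 2.25 to 2.79 RPKM in wild type (0.63 ± 0.18, adjusted p = 0.382), and 1.39 and 1.42 against 0.82 to 1.18 RPKM in epiblast (0.35 ± 0.18, adjusted p = 0.504). No other total of the window was called by limma between matDKO/CAST and B6/CAST. The count was 0 peaks of H3K4me3 in epiblast (0.333% of all peaks) and of H3K27me3 in ExE (0.0128%) and epiblast (0.0769%). For H3K36me3 it was 0 in either tissue (0.00413% each). At an unadjusted p under 0.05 the counts were 3, 2, 0, 1 and 0. Against the mean of both wild-type crosses more H3K4me3 peaks were called in each tissue, as given in the section on processing.

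H3K36me3 at the Airn start and along the genes passed the threshold between matDKO/CAST and B6/CAST in none of the features given here. Within 1000 bp of the Airn start it was 3.30, 2.34, 1.82 and 1.98 RPKM in wild-type ExE and 0.198 and 0.499 RPKM in matDKO/CAST, where the ExE inputs held 0.272 to 0.541 RPKM. The groups did not overlap, and the difference from B6/CAST was -1.98 ± 0.27 (adjusted p = 0.0892, with 0% of starts called). In epiblast the start held 0.900 to 1.62 RPKM in wild type and 0.160 and 0.535 RPKM in matDKO/CAST (-0.90 ± 0.27, adjusted p = 0.414, with 0.00961% called). Along Igf2r on the 3′ side of the Airn start, ExE H3K36me3 was 1.42 to 1.78 RPKM in wild type and 0.832 and 1.05 RPKM in matDKO/CAST (-0.65 ± 0.10, adjusted p = 0.102, with 0.0336% of gene bodies called). Along Airn past the Igf2r start it was 0.894 to 1.04 RPKM against 1.37 and 1.29 RPKM (0.32 ± 0.08, adjusted p = 0.135). In epiblast the part of Igf2r was 0.757 to 1.03 RPKM in wild type and 0.965 and 1.03 RPKM in matDKO/CAST, with a difference of the other sign (0.12 ± 0.10, adjusted p = 0.784). The part of Airn was 0.424 to 0.514 RPKM against 0.520 and 0.643 RPKM (0.21 ± 0.08, adjusted p = 0.520).

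**Figure D5:**
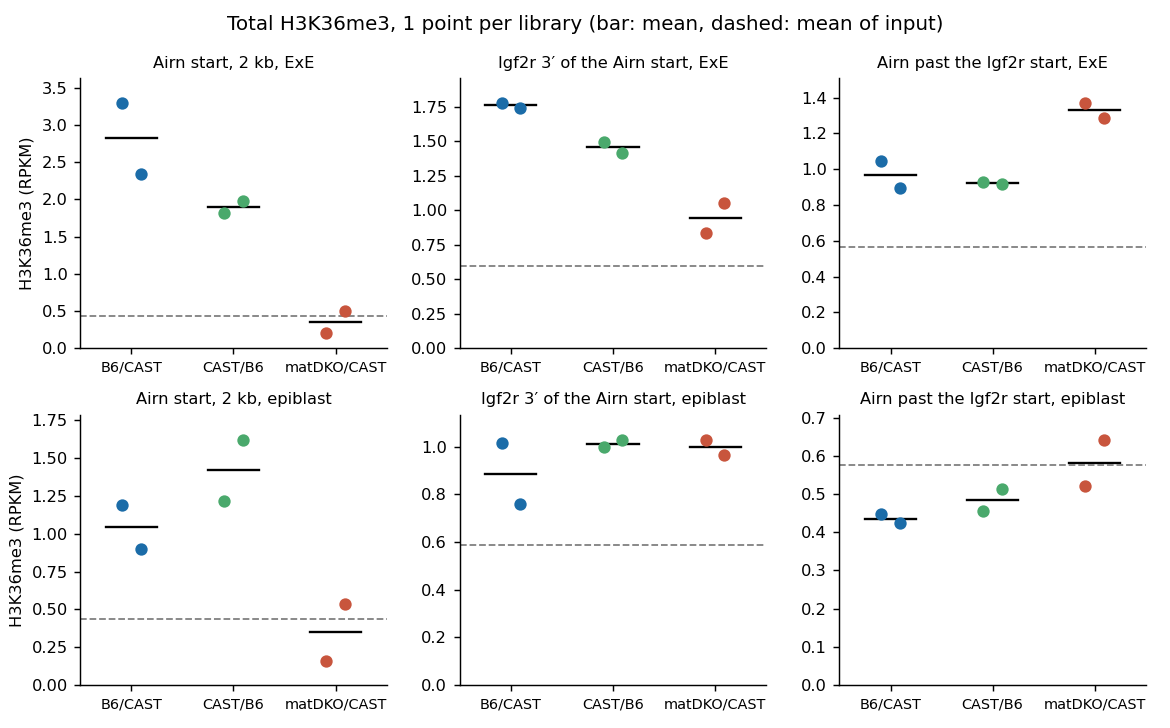
Total H3K36me3 (RPKM), 1 point per library with a bar at the mean, within 1000 bp of the Airn start, along Igf2r on the 3′ side of the Airn start, and along Airn past the Igf2r start, in ExE (top) and epiblast (bottom), with the mean input dashed. In ExE the matDKO/CAST points lie below the wild-type points in the first 2 panels and above them in the last one, and none of these differences passed the test.

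The genes at the far end of the window carried H3K4me3 on both copies. The ExE H3K4me3 peaks over Mrpl18, Pnldc1 and Tcp1, over Acat2 and over Wtap had log2 ratios between -0.35 and 0.15 in the wild-type crosses and between -0.16 and 0.06 in matDKO/CAST, and none was called. The Acat3 start was maternal in B6/CAST (-1.29 ± 0.25, adjusted p = 0.000671, and -1.09 with 0.0526 without B6/CAST replicate 2) and had a ratio of 0.07 in CAST/B6, so that neither parent was called in both crosses. Over Plg and the 3′ end of Slc22a3, the H3K36me3 peak of ExE (chr17:12386000-12420000) was maternal in B6/CAST (-1.13 ± 0.23, adjusted p = 6.02e-05) and not in CAST/B6 (-0.20, adjusted p = 0.764), and the first call was lost in DESeq2 (-1.08, adjusted p = 0.426) and without B6/CAST replicate 1 (-0.35, 0.827).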

How the data were processed

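Native ChIP-seq of H3K4me3, H3K27me3 and H3K36me3 was available for epiblast and ExE of 3 crosses, and groups and replicate numbers came from the labels. The authors trimmed the reads with Trim Galore (0.4.4 per the submitters' processing notes), aligned them with Bowtie2 2.3.2 to GRCm38 with strain variants masked, split them by parent at B6 and CAST variants, and deposited raw read counts for each copy in peaks called on both wild-type crosses of a mark and tissue. In matDKO/CAST, reads assigned to 129 in an extra alignment were counted as maternal, a step that adds to that copy alone. The authors also deposited RPKM of all reads in windows of 1 kb, and in every library 100% of low values were whole multiples of 1 read within 0.01. A single read was worth 0.0437 to 0.479 RPKM in the ChIP libraries, which sets the precision of low values. Coordinates are those of the deposited tables.

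Paternal and maternal counts of informative autosomal peaks were compared in each cross with edgeR 4.0.16 (glmQLFit and glmQLFTest, TMM scaling of every allele column, Benjamini-Hochberg adjustment over all such peaks, two-sided, threshold 0.05). The difference of the bias was the interaction of cross and parent. Total signal was log2 of mean RPKM plus 0.5, fitted with limma 3.58.1 over the 12 libraries of a mark. R 4.3.3, DESeq2 1.42.0, Python 3.11.15 and scipy 1.17.1 were used, with genes from GENCODE vM21 and promoters from RefSeq on GRCm38.p6. Both fits were tested on simulated data. Alternatives were DESeq2, library totals, no count minimum, other thresholds and pseudocounts, the library or replicate number as a block, and leaving out each library. The 2 copies of a library come from the same chromatin, and their deviations from the group means correlated at 0.0141 to 0.577, so a fit with the library as a block is given where it changes a call. Nothing shows that 2 libraries of a group came from separate litters, so p-values measure the spread between those pools.

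The members, lists and tests were chosen with earlier results of these data known. The contrasts of single alleles, the tissue comparison of the paternal share and the fits on start sites and gene bodies were added after seeing the data. Named were the 4 genes in every table, the peaks at their starts, the 3 peaks of each allele table with the most wild-type reads, and the other protein-coding genes by the peak at their start, except 1 that is not reported here. Other features named were chosen after their values were seen.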

Additional observations from a re-analysis of the deposited data

Results flagged for a closer look

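The paternal share differed between the tissues of wild-type embryos in 5 of 8 peak pairs by the exact permutation test over libraries (adjusted p = 0.0457 each, 4 against 4). As ExE minus epiblast, H3K4me3 differed by -35.4 percentage points at the Slc22a3 start, by -25.8 points at the Igf2r start and by -4.43 points at the Airn start. H3K27me3 differed by 13.8 points over the Slc22a stretch and by 16.0 points over distal Airn. Leaving out each library in turn gave -39.3 to -27.4 points at Slc22a3, -29.8 to -20.9 at Igf2r, -5.25 to -3.56 at Airn, 12.6 to 14.9 over the Slc22a stretch and 14.8 to 16.8 over distal Airn, where 3 against 4 libraries cannot reach the threshold.

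Among 52 sets of wild-type values, a single library stood apart in 3, where about 5% are expected by chance. In the CAST/B6 epiblast input replicate 2, the Airn start held 0.0465 RPKM and the Slc22a3 start 0.0930 RPKM, the lowest of 6 inputs at each. In CAST/B6 ExE replicate 2, the Igf2r start held 0.498 RPKM of H3K27me3, the lowest of 4 libraries. No test of the report used the inputs.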

How the results depend on the processing

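No called result changed direction under the alternatives run. Of results that were not called, the CAST/B6 ratio of H3K4me3 at the epiblast Slc22a3 start (0.07) was -0.08 with the library as a block. Of the counts that answer a comparison 287 stayed within 1.5 times the value given and 28 did not. Among tests of single peaks and features, 76 recomputed for the peaks and 15 for the analyses added later lost their call in the same direction, against 559 and 340 that did not. With the count given for the window in brackets, the called differences of bias in ExE H3K4me3 (2) were 1 in DESeq2 and 1 at an adjusted p below 0.01, and in epiblast H3K27me3 (1) they were 0 at that threshold. With the library as a replicate block they were 2 for epiblast H3K27me3, and 2 ExE H3K27me3 peaks (0) were biased in matDKO/CAST. The tissue difference of total H3K4me3 (10) was called for 4 peaks with a mean of at least 1 RPKM and for 5 at an adjusted p below 0.01. With that minimum, H3K36me3 gave 3 peaks between tissues (5) and 1 in matDKO/CAST ExE (0). Against the mean of both wild-type crosses, total H3K4me3 of matDKO/CAST was called for 4 peaks in ExE (2) and 1 in epiblast (0). The cause of these shifts was not tested. Leaving out each library gave 1 to 2 differences of bias for ExE H3K4me3 (1 without either B6/CAST library or matDKO/CAST replicate 2) and 0 to 1 for epiblast H3K27me3 (0 without B6/CAST replicate 1 or either matDKO/CAST library). It gave 0 to 1 biased peaks for epiblast H3K4me3 (0 without CAST/B6 replicate 2) and 1 to 3 for epiblast H3K27me3 (1 without either CAST/B6 library). It gave 6 to 13 tissue differences of total H3K4me3, with 6 without B6/CAST ExE replicate 1, either CAST/B6 ExE library, or replicate 2 of either wild-type cross in epiblast. In matDKO/CAST ExE it gave 1 to 3 total H3K4me3 peaks (1 without B6/CAST ExE replicate 1) and 0 to 1 H3K36me3 peaks (1 without either B6/CAST epiblast library). A cross left with 1 library was assumed to vary like the others. For total signal, libraries that share a replicate number did not deviate together in every pair (correlations of -0.115 to 0.345). The wild-type H3K4me3 pairs of the tissues did, at 0.270 to 0.345. With the replicate block 13 peaks differed in H3K4me3 between tissues, against 10 without it. Depth limits most the epiblast values of matDKO/CAST, where the smallest H3K27me3 library held 270678 allele-assigned reads.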

Other observations

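Over the whole window, the paternal share of H3K27me3 reads was 84.8 to 88.3% in wild-type ExE and 69.2 to 74.8% in wild-type epiblast, and 48.7% in both matDKO/CAST ExE libraries and 47.9 and 49.3% in matDKO/CAST epiblast. The ExE and epiblast shares differed by 14.2 points (exact permutation test, p = 0.0286, adjusted p = 0.0857 over 3 marks). For H3K4me3 the wild-type mean was 49.9% in ExE and 51.7% in epiblast (p = 0.2 by the same exact test), and for H3K36me3 it was 45.5 and 45.4% (exact p = 0.971).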
